A study of Homo sapiens with 8 samples.

Results

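The genes described here encode the nuclear-encoded subunits of the mitochondrial respiratory chain, measured by RNA-seq in LX-2 cells on a soft or a stiff matrix. Members were chosen by name from the 25369 genes of the count table. A gene was taken if its symbol starts with NDUFA, NDUFB, NDUFC, NDUFS or NDUFV and a digit, or with UQCR, COX4, COX5, COX6, COX7, COX8 or ATP5, or is NDUFAB1, SDHA, SDHB, SDHC or SDHD, and if it had at least 10 counts in every library. Of 93 symbols with such a name, 79 met the count minimum. By name, 39 of the 79 belong to complex I, 4 to complex II, 9 to complex III, 11 to complex IV and 16 to complex V. LX-2 is an immortalized human line of hepatic stellate cells (HSCs), the cells that turn into myofibroblasts in liver fibrosis. The cells, labelled as wild type, were seeded on polyacrylamide hydrogels of 2 kPa (soft matrix) or 40 kPa (stiff matrix) and collected at day 2 or day 4, with 2 libraries in each of the 4 conditions. All libraries come from this one cell line. The labels do not say what sets the replicates apart, but the study describes its sequencing replicates as biological and the RNA-seq as repeated in independent experiments.

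The respiratory chain passes electrons from NADH through complex I (NADH dehydrogenase), or from succinate through complex II (succinate dehydrogenase), to ubiquinone, on through complex III (the cytochrome bc1 complex) and cytochrome c, and finally to oxygen at complex IV (cytochrome c oxidase). Proton pumping by complexes I, III and IV drives complex V, the ATP synthase. Most subunits are encoded in the nucleus and imported, whereas the catalytic core of several complexes is encoded by mitochondrial DNA, whose genes are not analysed here. In stellate cells, a shift between oxidative and glycolytic metabolism is known to accompany the myofibroblast state.

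Nuclear genes of the respiratory chain are known for promoters with sites for the factors NRF1, GABP (an ETS factor) and YY1. The promoters of SDHD, ATP5C1 and NDUFB4 are shown because each holds the NRF1 letters on both strands. Between the days SDHD and NDUFB4 rose on both matrices and ATP5C1 on the stiff one. They span 250 bases before to 50 after the RefSeq transcription start on GRCh38.p14, written 5′ to 3′ on the strand of the gene, and the capitals mark matches to the motif letters.
SDHD (chr11:112086623-112086922, forward strand): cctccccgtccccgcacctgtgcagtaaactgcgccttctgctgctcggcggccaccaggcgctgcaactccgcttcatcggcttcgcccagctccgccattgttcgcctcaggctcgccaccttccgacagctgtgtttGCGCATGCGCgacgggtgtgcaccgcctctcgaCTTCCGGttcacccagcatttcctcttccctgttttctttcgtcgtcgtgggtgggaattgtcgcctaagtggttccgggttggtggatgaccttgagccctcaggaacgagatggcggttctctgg
ATP5C1, now named ATP5F1C (chr10:7787927-7788226, forward strand): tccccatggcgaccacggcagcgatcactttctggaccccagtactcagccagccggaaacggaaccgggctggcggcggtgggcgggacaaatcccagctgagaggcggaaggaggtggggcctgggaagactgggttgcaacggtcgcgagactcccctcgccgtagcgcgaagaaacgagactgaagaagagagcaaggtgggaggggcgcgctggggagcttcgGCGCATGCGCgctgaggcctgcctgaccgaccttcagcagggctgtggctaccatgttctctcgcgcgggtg
NDUFB4 (chr3:120596086-120596385, forward strand): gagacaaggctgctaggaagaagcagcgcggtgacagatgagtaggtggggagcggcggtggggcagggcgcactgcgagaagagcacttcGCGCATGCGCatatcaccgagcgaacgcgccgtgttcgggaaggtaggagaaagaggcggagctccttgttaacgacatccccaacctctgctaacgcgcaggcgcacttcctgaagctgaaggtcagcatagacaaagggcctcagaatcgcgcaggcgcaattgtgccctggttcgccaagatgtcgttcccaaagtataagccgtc
In all 3 sequences the capitals GCGCATGCGC hold the searched NRF1 letters GCGCATGC and, overlapping them, their reverse complement. SDHD also holds the reverse complement of the searched ETS letters CCGGAAG. Of the 79 members, 64 have a promoter in the RefSeq table used, and 34 of these 64 hold at least 1 of the 3 motifs on either strand. The NRF1 letters were found in 14 of the 64 (21.9%), against 3.27% of all 27305 promoters of the same length and 5.68% of the 10232 promoters of genes that meet the same count minimum. The ETS letters were found in 19 (29.7%, against 10.7% and 19.7%), and the YY1 letters AAGATGGC in 12 (18.8%, against 3.03% and 5.41%). SDHB and ATP5J, now named ATP5PF, hold all 3. Of the 17 members that rose between the days on either matrix, 13 have a promoter in the table, and 5 of these 13 hold any of the motifs. A match is a string of letters and not evidence of binding. The promoters of NDUFA6 and NDUFA6-AS1 share bases on opposite strands and are not independent.

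Not every gene with such a name is a subunit of its own. NDUFA6-AS1 is a long noncoding RNA and UQCRHL a copy of UQCRH. ATP5S and ATP5SL are not structural subunits of ATP synthase, and COX7A2L is known for joining complexes rather than as a subunit of complex IV alone. NDUFA4 is named for complex I and is known as a subunit of complex IV. Of the 14 symbols under the minimum, 4 had 0 counts in every library. Just inside the minimum were UQCRHL, with 61 counts in its lowest library, and NDUFA6-AS1, with 71. Just outside were NDUFB2-AS1, with 9 counts in its lowest library, and ATP5E, the epsilon subunit of ATP synthase. On the soft matrix, ATP5E had 149 and 105 counts at day 2 but 7 and 4 at day 4, and on the stiff matrix 114 and 95 counts at day 2 but 5 and 5 at day 4. The read-through gene SLMO2-ATP5E was listed at 0 counts in all 8 libraries, while SLMO2 had between 846 and 1039 counts at day 2 and between 1908 and 2181 at day 4. All 79 members also passed edgeR's filter on low counts, which kept 14570 genes.

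The libraries held between 19955975 and 27263935 counts on genes, of which the 79 members took between 0.869% and 1.36%. The lowest and the highest of these shares both belonged to the stiff matrix at day 4, in replicates 1 and 2 respectively. Members are short: 42 of 79 (53.2%) had a length under 1000 bases, against 6.67% of all genes tested, and their median length was 959 bases against 3133. The length is the one implied by the deposited FPKM. Of 12 stellate cell markers 9 passed the filter, and the summed level of all 12 lay between 3340 and 8060 CPM (counts scaled to library size), with COL1A1, COL1A2, VIM and ACTA2 on the list. Summed markers of hepatocytes (8 genes, with TTR and HNF4A at 0) stayed between 4.45 and 10.6 CPM, of endothelial cells (6 genes, LYVE1 at 0) between 0.835 and 1.55 CPM, and of macrophages and leukocytes (7 genes, CD163 and CD3E at 0) between 89.8 and 127 CPM. In bulk RNA, fewer cells of a type and less RNA per cell cannot be told apart.

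Levels were compared between genes by FPKM, which is scaled per length, averaged over the 8 libraries. The small structural subunits of complex IV were the most abundant. COX8A had a mean of 595 FPKM, COX6A1 574 FPKM and COX7C 556 FPKM, and the median over the 11 genes of complex IV was 240.7 FPKM. The medians of complex V (111.9 FPKM), complex III (82.2 FPKM), complex I (76.6 FPKM) and complex II (57.1 FPKM) were lower. In complex I the highest level was that of NDUFS6 (403 FPKM), a zinc-binding accessory subunit, and the lowest that of the noncoding NDUFA6-AS1 (3.24 FPKM). In complex II the catalytic flavoprotein SDHA had 144 FPKM, the iron-sulfur subunit SDHB 71.9 FPKM and the membrane anchors SDHD and SDHC 42.3 and 37 FPKM. Complex III ranged from the hinge protein UQCRH (298 FPKM) to its copy UQCRHL (14.7 FPKM), and complex V from the catalytic beta subunit ATP5B (344 FPKM) to ATP5S (6.5 FPKM). FPKM of a gene depends on the length given to it. NDUFA5 and UQCRB were assigned lengths of 6506 and 5223 bases, although both encode small proteins, which lowers their FPKM against their CPM.

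**Figure D1:**
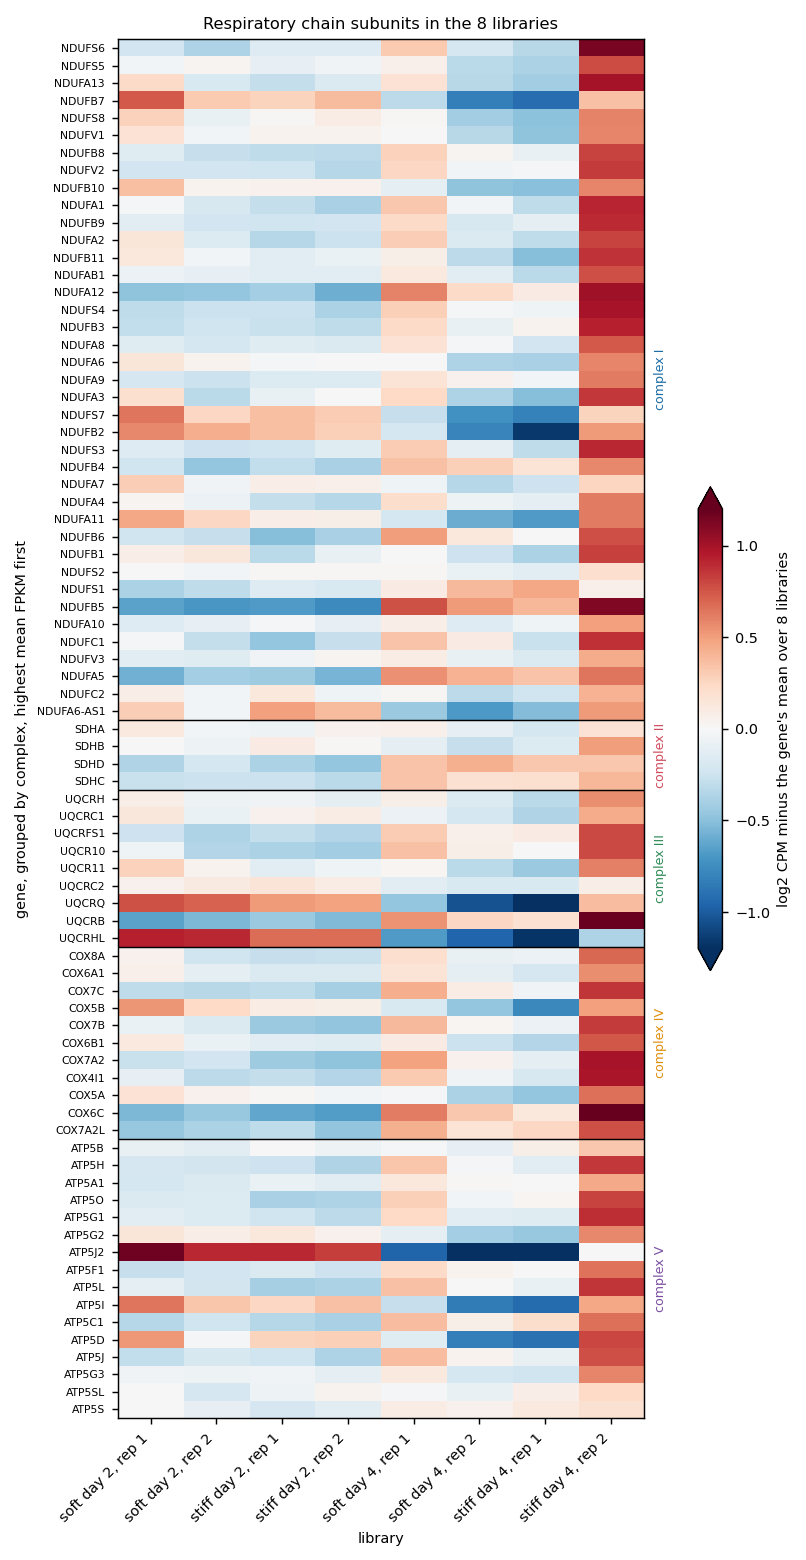
Each row is 1 of the 79 genes, grouped by complex, and each column 1 of the 8 libraries. The colour gives log2 CPM minus the mean of the gene over the 8 libraries, with values beyond 1.2 drawn in the last colour. The column of the stiff matrix at day 4, replicate 2, is red in nearly all rows (78 of 79 genes above their own mean), whereas replicate 1 of the same condition has 20 genes above their mean.

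One library stood apart in these genes. In replicate 2 of the stiff matrix at day 4, 78 of 79 members were above their own mean over the 8 libraries, with a median deviation of 0.65 on the log2 CPM scale. In the other 7 libraries the median deviation lay between -0.18 and 0.16, with 17 to 59 members above their mean. Between the replicates of that condition, replicate 2 was higher than replicate 1 in 78 of 79 members, the exception being NDUFS1, by a median of 0.92 on the log2 scale or 1.89-fold. The median over all genes tested was 0.00. On the soft matrix at day 4, replicate 2 was instead lower in 77 of 79 members, with a median difference of -0.30. At day 2 the medians were -0.09 (soft) and -0.02 (stiff).

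At day 4 the difference between the replicates moved with the length of the gene on both matrices, in opposite directions. Across the 79 members, Spearman's rho of replicate 2 minus replicate 1 with log length was -0.567 on the stiff and 0.565 on the soft matrix. With GC content it was 0.497 and -0.416. At day 2 rho with log length was -0.148 on the stiff and 0.305 on the soft matrix, and with GC content 0.415 and -0.65. These are descriptions across genes of the same 2 libraries of a condition, and genes are not independent replicates. For the stiff matrix at day 4, the deviation of replicate 2 from the mean of 8 libraries had a median of 0.39 among the shortest 25% of all tested genes. Among the longest 25% it was -0.31. In replicate 1 these medians were -0.205 and 0.137. The deviation of replicate 2 was 0.55 over the mitochondrial ribosomal protein genes and 0.75 over the cytosolic ribosomal protein genes, 2 further families of short transcripts. The part of length and of RNA or library quality in the levels of these subunits was not tested.

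**Figure D2:**
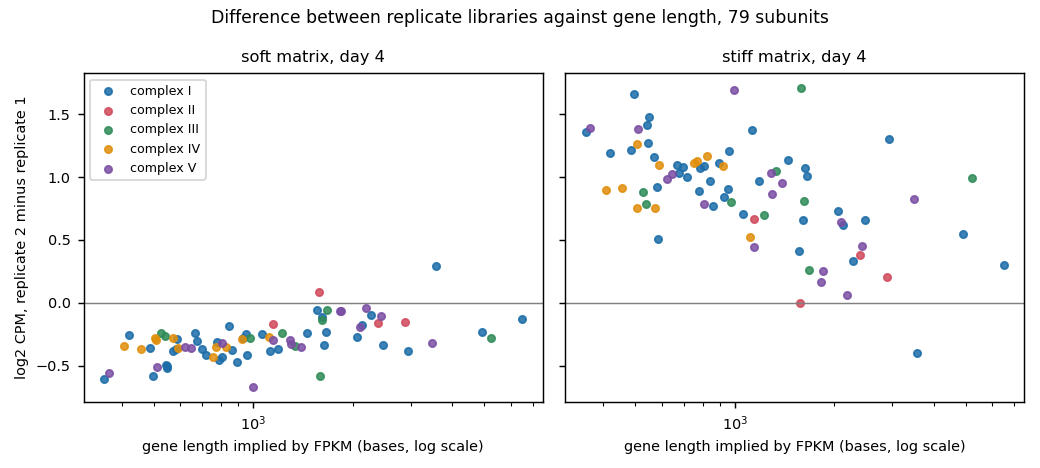
Each point is 1 of the 79 genes, coloured by complex. The x axis gives the gene length in bases on a log scale and the y axis log2 CPM of replicate 2 minus replicate 1, for the soft (left) and the stiff matrix (right) at day 4. On the stiff matrix 78 of 79 points lie above 0, with the shorter genes higher (rho -0.567). On the soft matrix 77 of 79 lie below 0, with the shorter genes lower (rho 0.565).

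The effect of stiffness was first asked in the cells cultured for 2 days. None of the 79 members passed edgeR's quasi-likelihood test in either direction at an adjusted p-value under 0.05 (hereafter called), where the share of all genes called was 0% in both directions. DESeq2 called 0 members as well, and 0 members had an unadjusted p-value under 0.05 in the edgeR test. The median log2 fold change of the members was -0.07 (0.01 over all genes tested), with 23 above and 56 below 0. Over complex IV the median was -0.15, and 10 of its 11 genes were below 0. Medians in complexes I, II, III and V were -0.05, -0.04, -0.09 and -0.07. The libraries of the matrices did not overlap in 33 members lower on the stiff matrix (41.8% of 79, against 22.4% of all genes) and in 10 higher (12.7%, against 25.7%).

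COX7B, a small structural subunit of complex IV, had the lowest fold change at day 2. It was at 106 and 98.8 CPM at day 2 and 146 and 113 CPM at day 4 on the soft matrix, against 81.9 and 80.5 CPM and 106 and 200.5 CPM on the stiff one. Both stiff libraries of day 2 lay below both soft ones, with a log2 fold change of -0.33 (standard error 0.27, edgeR adjusted p = 0.9999). The highest was NDUFA6-AS1, at 6.34 and 5.04 CPM at day 2 and 3.78 and 3.2 CPM at day 4 on the soft matrix, against 7.26 and 6.7 CPM and 3.58 and 7.31 CPM on the stiff one. Its stiff libraries of day 2 lay above the soft ones, and the log2 fold change was 0.30 (standard error 0.31, edgeR adjusted p = 0.9999). When the day 2 libraries were fitted alone, 5 members were called lower and 0 higher, against 2.47% of all genes called lower in that fit. These 5 were COX7B, COX5B, NDUFA4, NDUFA2 and NDUFA11, with log2 fold changes of -0.34, -0.32, -0.31, -0.31 and -0.29. In that fit the standard error of COX7B was 0.08, against 0.27 in the fit of all libraries. These 5 genes were singled out after their values were seen.

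In the cells cultured for 4 days, again none of the 79 members was called by edgeR in either direction, while 0.0343% of all genes were called higher and 0.213% lower on the stiff matrix. DESeq2 called 0 members too, and 0 members had an unadjusted p-value under 0.05 in the edgeR test. The fold changes nevertheless pointed one way, with 78 of 79 above 0 and a median log2 fold change of 0.28 (0.02 over all genes). This direction rested on the library described above. Without replicate 2 of the stiff matrix, 6 of 79 members were above 0 and the median was -0.22. Without replicate 1 the median was 0.68. In 58 of the 79 members, one stiff library lay below both soft ones and the other above both. Offsets for gene length brought the median to 0.14 and offsets for length and GC content to 0.13. With these offsets and without replicate 2 it was -0.07.

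The medians at day 4 were 0.31 in complex I, 0.02 in complex II, 0.23 in complex III, 0.30 in complex IV and 0.27 in complex V. The largest fold change was that of ATP5J2, a membrane subunit of ATP synthase also known as subunit f, at 0.67 (standard error 0.39, edgeR adjusted p = 0.839). It was -0.17 without replicate 2 of the stiff matrix. The lowest was that of SDHD, a membrane anchor of complex II, at -0.07 (standard error 0.13, edgeR adjusted p = 0.94), and with length and GC offsets and without replicate 2 it was 0.06. The libraries of the matrices did not overlap in 3 members higher on the stiff matrix (3.8% of 79, against 11.7% of all genes) and in 1 lower (1.27%, against 14%). The lower one was SDHD, and the higher ones, named after their values were seen, were ATP5B, ATP5S and ATP5SL. ATP5B, the catalytic beta subunit of ATP synthase, was at 597 and 580.1 CPM at day 2 and 624 and 595 CPM at day 4 on the soft matrix, against 638 and 611 CPM and 669 and 797 CPM on the stiff one. All 4 of its stiff libraries were above both soft libraries of the same day, by a log2 fold change of 0.08 at day 2 and 0.27 (standard error 0.14, edgeR adjusted p = 0.819) at day 4. Exons of ATP5S lie for 41.8% of their bases opposite other genes, and the strand setting of the counting is not given in the sources used here.

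**Figure D3:**
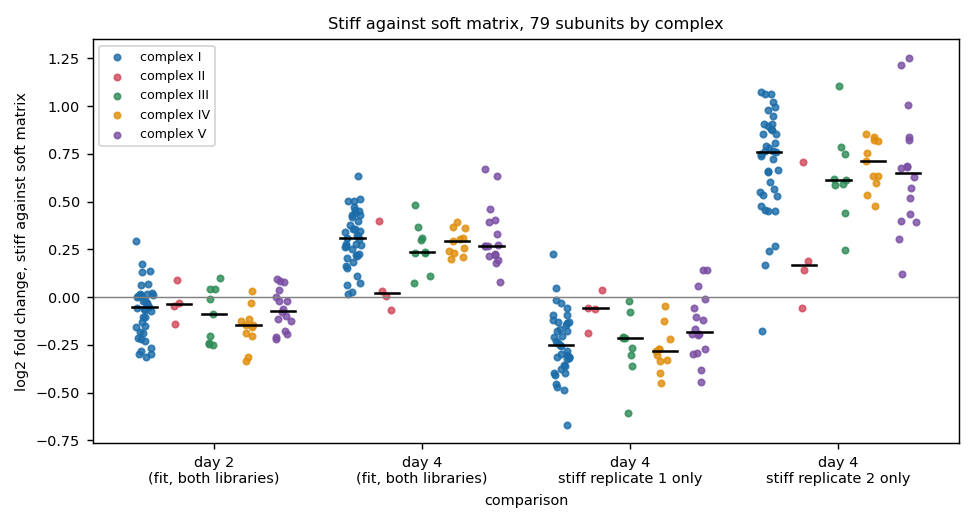
Each point is the log2 fold change of 1 of the 79 genes on the stiff against the soft matrix, coloured by complex, with a black bar at the median of the complex. From left to right are day 2, day 4, and day 4 with 1 stiff library left out, from edgeR fits. The medians of all 79 are -0.07, 0.28, -0.22 with replicate 1 only and 0.68 with replicate 2 only, so that the sign at day 4 turns with the library that is kept.

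The change between day 2 and day 4 was then compared on each matrix. The labels give no batch or date, and what else may have differed between the libraries of the days cannot be told apart from time in culture. On the soft matrix 9 members rose and 2 fell by edgeR's test (11.4% and 2.53% of 79), against 14.1% and 13.3% of all genes. The median log2 fold change was 0.10 (0.02 over all genes). On the stiff matrix 16 members rose and 2 fell (20.3% and 2.53%), against 14% and 13.7% of all genes. The median was 0.45 (0.03 over all genes). The share that rose on the soft matrix was near that of all genes, and the share that fell was below it on both matrices. The number that fell moved with the libraries kept in the fit, as given below. On the stiff matrix the median was -0.02 without its replicate 2 of day 4 and 0.86 without its replicate 1 of day 4. On the soft matrix it was 0.08 and 0.09 in these fits, which keep all libraries of that matrix. Of the markers of other cell types, those of biliary and epithelial cells moved with the day, their summed level being 32.2 to 37 CPM on the soft and 33.3 to 35.6 CPM on the stiff matrix at day 2, and 63.2 to 71.2 and 50.7 to 60.4 CPM at day 4. Of the 5 markers, 3 were tested, 1 was called (SOX9, with log2 fold changes of 1.45 and 0.87) and none was at 0 in every library. Of the 7 macrophage and leukocyte markers 3 were tested, and their sum was 89.8 to 109 CPM at day 2 and 106 to 127 CPM at day 4. PTPRC, the pan-leukocyte marker CD45, was called on both matrices, at 0.503 to 1.13 CPM at day 2 and 2.02 to 2.89 CPM at day 4. Stellate cell markers summed to 3340 to 4280 CPM at day 2 and 5450 to 8060 CPM at day 4. Of the 9 tested, 7 were above 0 and 2 below on each matrix. The lowest log2 fold change was -0.47 on the soft and -0.57 on the stiff matrix. ACTA2, LOX, RGS5 and VIM were called higher and 0 lower on both matrices by edgeR, while DESeq2 called 1 lower on the stiff one. The part of these shifts in the levels of the subunits was not tested.

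The 8 members that rose on both matrices were NDUFB5, NDUFA5, NDUFA12 and NDUFB4 of complex I, SDHC and SDHD of complex II, UQCRB of complex III and COX7A2L. They make up 88.9% of the rises on the soft and 50% of those on the stiff matrix. ATP5J2 and UQCRHL fell on both. NDUFS1 was called on the soft matrix only, and COX6C, COX7B, NDUFB3, NDUFB6, UQCR10, UQCRFS1, ATP5C1 and ATP5O were called on the stiff matrix only. A call on one matrix alone does not show a difference between the matrices, and none of these genes was called in the test of that difference. The fit without replicate 2 of the stiff matrix at day 4 called 16 members higher and 19 lower on that matrix, with 21.1% and 22.6% of all genes called. Of the 16 rises, 15 were shared with the fit of all libraries, NDUFB3 being lost and NDUFS1 gained, and both falls were shared. The median was then -0.02, with 38 of 79 members above 0.

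The number of calls moved with single libraries, among the members and among all genes. Where a fit leaves 1 library in a condition, that library is assumed to vary like the other groups. On the soft matrix, the fit without replicate 1 of day 2 called 0 members higher and 0 lower, with 0.728% and 1.59% of all genes. Without replicate 2 of day 2 it called 1 higher and 2 lower (3.19% and 4.64% of all genes), without replicate 1 of day 4, 0 and 2 (3.22% and 3.55%), and without replicate 2 of day 4, 2 and 1 (3.88% and 4.34%). Without either stiff library of day 2 it called 3 higher and 2 lower, where 8.03% to 8.06% of all genes were higher and 8.16% to 8.17% lower. Without replicate 1 of the stiff matrix at day 4 it called 30 higher and 16 lower (26.1% and 26.8% of all genes), and without replicate 2, 30 and 18 (25.4% and 27.3%). For the stiff matrix, 2 members were called higher without its replicate 1 of day 2 (2.18% of all genes) and 0 without its replicate 2 of day 2 (1.1%). In these fits 0 members were lower, against 3.57% and 2.04% of all genes. Without replicate 1 of the stiff matrix at day 4, 63 were called higher and 2 lower, against 26.4% and 25.7% of all genes. Without a soft library, between 9 and 11 were called higher and 1 or 2 lower, against 8.06% to 9.7% and 8.36% to 10.7% of all genes. The cause of these moves was not tested.

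The change between the days also moved with GC content. Across the 79 members, rho of the log2 fold change with GC content was -0.616 on the soft and -0.549 on the stiff matrix. Across 14080 genes with a length and GC content it was -0.574 and -0.443. The 17 members that rose on either matrix had a median GC content of 41.8%, the 2 that fell one of 53.2%, and the other 60 one of 51.4%. The part of GC content in these changes was not tested, but offsets for length and GC content were fitted as an alternative. With them, 11 members were called higher and 6 lower on the soft matrix, with 15.2% and 13.1% of all genes. On the stiff matrix these numbers were 20 and 4, with 18% and 13.2% of all genes.

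**Figure D4:**
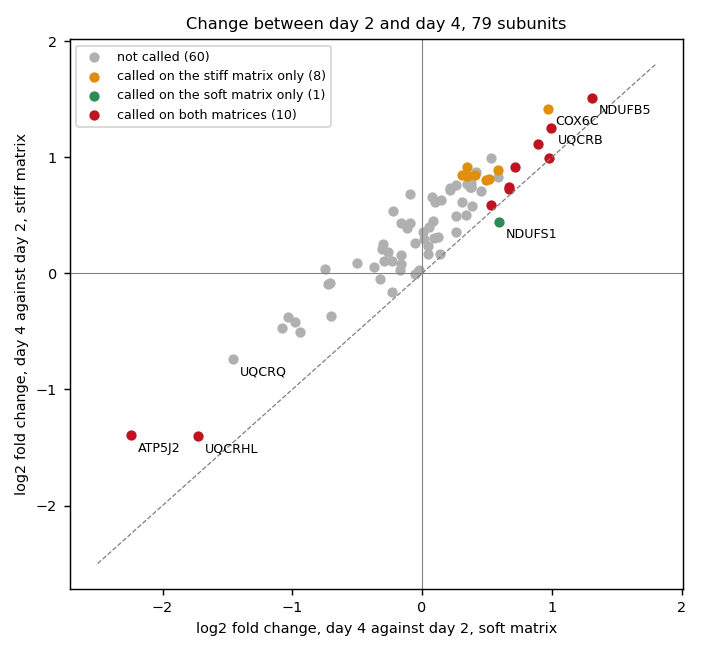
Each point is 1 of the 79 genes, with its log2 fold change from day 2 to day 4 on the soft matrix on the x axis and on the stiff matrix on the y axis. Red points were called on both matrices (10), orange on the stiff matrix only (8), green on the soft matrix only (1) and grey on neither (60). Nearly all points lie above the dashed line of equal change, where 78 of 79 genes had a larger fold change on the stiff matrix when replicate 2 of day 4 was included.

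In complex I, 5 of 39 genes rose on the soft matrix, 6 rose on the stiff matrix and 0 fell, and the median log2 fold change was 0.09 and 0.50 respectively. Among all genes, 14.1% rose and 13.3% fell on the soft matrix, and 14% rose and 13.7% fell on the stiff one. NDUFB5, an accessory subunit of the membrane arm, lies on chromosome 3 of GRCh37 from 179322478 to 179345435, forward strand. It was at 17.1 and 16.4 CPM at day 2 and 45.1 and 37.9 CPM at day 4 on the soft matrix, against 16.7 and 15.7 CPM and 35.2 and 57.4 CPM on the stiff one. Every library of day 4 was above every library of day 2, as the plot of 6 subunit genes shows. The mean rose from 16.8 ± 0.446 CPM to 41.5 ± 5.09 CPM (SD, n = 2) on the soft matrix, a log2 fold change of 1.31 (standard error 0.23, edgeR adjusted p = 0.00702). Across the stiff libraries it rose from 16.2 ± 0.68 CPM to 46.3 ± 15.7 CPM (SD, n = 2), a log2 fold change of 1.51 (standard error 0.23, edgeR adjusted p = 0.00471). Of its exon bases, 7.3% are shared with another gene on the same strand. With length and GC offsets its log2 fold changes were 0.80 and 0.84, and it was still called on both matrices.

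NDUFA5, an accessory subunit of the matrix arm, lies on chromosome 7 of GRCh37 from 123177051 to 123197958, reverse strand. Its level was 58.8 and 66.1 CPM at day 2 and 128 and 117 CPM at day 4 on the soft matrix, against 65.3 and 59.6 CPM and 111 and 137 CPM on the stiff one. The days did not overlap, and the stiff and soft libraries of day 4 did. The log2 fold change was 0.98 (standard error 0.15, edgeR adjusted p = 0.0049) on the soft and 0.99 (standard error 0.15, edgeR adjusted p = 0.00484) on the stiff matrix. With length and GC offsets it was 0.41 and 0.69 and no longer called (edgeR adjusted p = 0.217 and 0.0551). With these offsets and without replicate 2 of the stiff matrix at day 4 it was 0.39 on the soft matrix, where it was called (edgeR adjusted p = 0.00199), and 0.23 on the stiff one, where it was not (0.11). Its GC content of 34.1% was the lowest among the members that rose.

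NDUFA12, another accessory subunit, was at 42.6 and 43.1 CPM at day 2 and 89.8 and 69.5 CPM at day 4 on the soft matrix, against 45 and 39.7 CPM and 63.6 and 120.3 CPM on the stiff one. Its days did not overlap either, but the lowest library of day 4 was the first stiff one. The log2 fold change was 0.89 (standard error 0.28, edgeR adjusted p = 0.0486) on the soft and 1.12 (standard error 0.28, edgeR adjusted p = 0.0238) on the stiff matrix, where it was 0.58 without replicate 2 of day 4 and still called. NDUFB4 had fold changes of 0.67 and 0.72 on the log2 scale. Both were called, and neither was called with length and GC offsets (0.29 and 0.26). NDUFB3 and NDUFB6 rose on the stiff matrix by 0.84 and 0.89, but without replicate 2 of day 4 these values were 0.32 and 0.44. They were 0.27 and 0.33 with length and GC offsets, and neither was called (edgeR adjusted p = 0.105 and 0.0598).

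NDUFS1 carries iron-sulfur clusters in the catalytic core of complex I, and its pattern over the libraries differed from that of most members. It was at 87.9 and 92.7 CPM at day 2 and 122 and 149.8 CPM at day 4 on the soft matrix, against 103 and 101 CPM and 158 and 119.6 CPM on the stiff one. It was the only member with a lower level in replicate 2 than in replicate 1 of the stiff matrix at day 4, and on the soft matrix it was higher in replicate 2. Its implied length was 3572 bases. It rose on the soft matrix, with a log2 fold change of 0.59 (standard error 0.17, edgeR adjusted p = 0.0372). The value was 0.18 with length and GC offsets and not called (edgeR adjusted p = 0.162). Its change on the stiff matrix was 0.45 (standard error 0.17, edgeR adjusted p = 0.0885) and not called. Opposite another gene lie 11.6% of its exon bases.

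NDUFS6, the most abundant gene of complex I by FPKM, was at 178 and 162 CPM at day 2 and 260.3 and 181 CPM at day 4 on the soft matrix, against 187 and 187 CPM and 165 and 459.9 CPM on the stiff one. The stiff libraries of day 4 were far apart, the first lying among the libraries of day 2 and the second being the highest of all. No contrast of NDUFS6 was called, the largest log2 fold change being 0.74 (standard error 0.41, edgeR adjusted p = 0.208) between the days on the stiff matrix.

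In complex II, both membrane anchors rose between the days on both matrices, and neither of the catalytic subunits was called. The share of all genes that rose was 14.1% on the soft and 14% on the stiff matrix. SDHD lies on chromosome 11 of GRCh37 from 111957548 to 111990739, forward strand, and its promoter is printed above. It was at 50.8 and 56.3 CPM at day 2 and 82.9 and 87.7 CPM at day 4 on the soft matrix, against 50 and 47.2 CPM and 81.5 and 81.6 CPM on the stiff one. The libraries of day 4 lay between 81.5 and 87.7 CPM, above all libraries of day 2, and its replicates on the stiff matrix at day 4 were nearly equal, against the median of 1.89-fold between them over all members. The mean rose from 53.6 ± 3.9 CPM to 85.3 ± 3.41 CPM on the soft matrix (SD, n = 2), a log2 fold change of 0.67 (standard error 0.13, edgeR adjusted p = 0.00874). Stiff libraries gave 0.75 (standard error 0.13, edgeR adjusted p = 0.00644) for the same comparison. With length and GC offsets the value was 0.21 on the soft and 0.22 on the stiff matrix and not called. With these offsets and without replicate 2 of the stiff matrix at day 4 it was 0.20 and 0.355. Of its exon bases, 11.4% are shared with another gene on the same strand.

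SDHC, the other anchor and the complex II gene with the lowest FPKM, lies on chromosome 1 of GRCh37 from 161284171 to 161332996, forward strand. It was at 87.3 and 87.8 CPM at day 2 and 133 and 119.6 CPM at day 4 on the soft matrix, against 87.7 and 84 CPM and 120.2 and 138 CPM on the stiff one. Its days did not overlap. The log2 fold change was 0.53 (standard error 0.13, edgeR adjusted p = 0.0228) on the soft and 0.59 (standard error 0.13, edgeR adjusted p = 0.0161) on the stiff matrix, and both were also called with length and GC offsets. SDHA, the catalytic flavoprotein, was at 373 and 336 CPM at day 2 and 360.3 and 323 CPM at day 4 on the soft matrix, against 329.7 and 358 CPM and 298 and 388 CPM on the stiff one. Its libraries of both days overlapped, with log2 fold changes of -0.06 on the soft and -0.0037 on the stiff matrix. SDHB had log2 fold changes of -0.16 and 0.15.

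**Figure D5:**
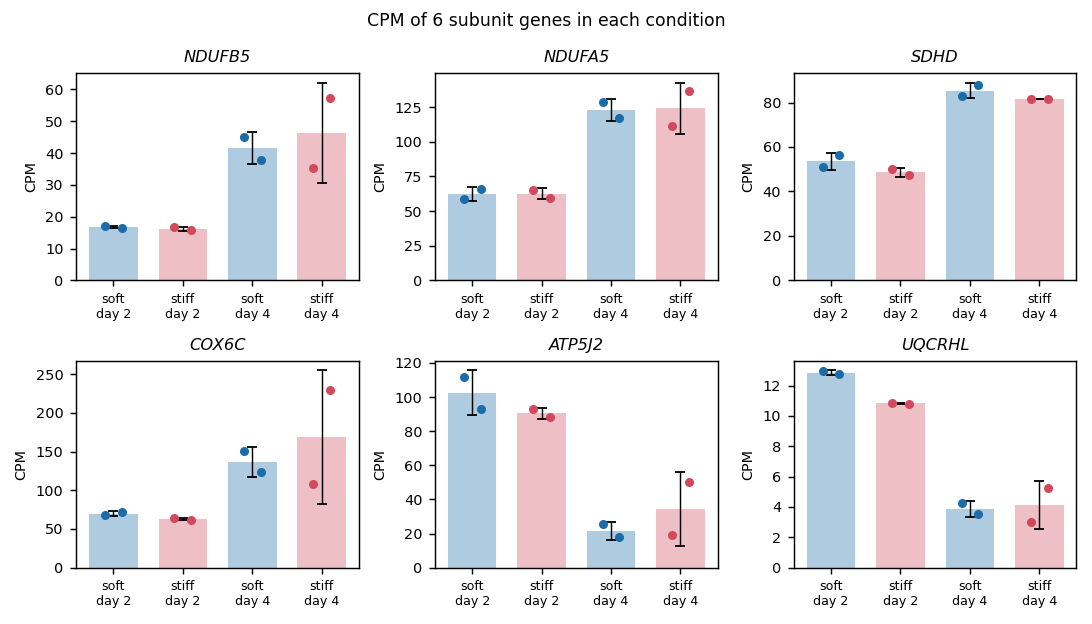
Bars give the mean CPM of 2 libraries per condition, points the 2 libraries and error bars the SD, on axes that start at 0. NDUFB5, NDUFA5, SDHD and COX6C are higher in all 4 libraries of day 4 than in all of day 2, and ATP5J2 and UQCRHL lower. SDHD has 81.5 and 81.6 CPM on the stiff matrix at day 4, whereas COX6C has 108 and 229.6 CPM.

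In complex III, 1 of 9 genes rose and 1 fell on the soft matrix, and 3 rose and 1 fell on the stiff matrix. For all genes the shares that rose and fell were 14.1% and 13.3% on the soft and 14% and 13.7% on the stiff matrix. UQCRB, a subunit next to the ubiquinone site, was at 85.7 and 91.5 CPM at day 2 and 193 and 159 CPM at day 4 on the soft matrix, against 98 and 92.2 CPM and 152 and 302 CPM on the stiff one. The day 4 libraries were all above those of day 2, and the second stiff library was far above the other 3. Its log2 fold change was 0.99 (standard error 0.29, edgeR adjusted p = 0.038) on the soft and 1.25 (standard error 0.29, edgeR adjusted p = 0.0179) on the stiff matrix, where it was 0.66 without replicate 2 of day 4. Fitted with length and GC offsets it was 0.55 and 1.08 and called on neither (edgeR adjusted p = 0.325 and 0.0718). With that library left out as well, it was 0.54 on the soft and 0.17 on the stiff matrix. UQCR10 and UQCRFS1, the latter the Rieske iron-sulfur protein, rose on the stiff matrix by 0.85 and 0.81 on the log2 scale, and these values were 0.38 and 0.41 without replicate 2 of day 4. Offsets for length and GC content gave 0.52 and 0.35, still called, and UQCRFS1 was not called with the offsets and without that library (0.23, edgeR adjusted p = 0.0521).

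The hinge protein UQCRH was at 164 and 148 CPM at day 2 and 163 and 138 CPM at day 4 on the soft matrix, against 151 and 144 CPM and 124 and 229 CPM on the stiff one. Its copy UQCRHL, on chromosome 1 of GRCh37 from 16133664 to 16135843, reverse strand, was at 13 and 12.7 CPM at day 2 and 4.25 and 3.52 CPM at day 4 on the soft matrix, against 10.8 and 10.8 CPM and 3.0 and 5.24 CPM on the stiff one. UQCRHL rested on 258 to 368 counts at day 2 and 61 to 91 at day 4, and every library of day 4 was below every one of day 2. It fell with a log2 fold change of -1.73 (standard error 0.25, edgeR adjusted p = 0.00397) on the soft and -1.40 (standard error 0.26, edgeR adjusted p = 0.00804) on the stiff matrix, while UQCRH had -0.05 and 0.27. Reads of such near-identical copies can be split between them or discarded in counting, so that its level is uncertain. UQCRQ, a small subunit, was at 122 and 118 CPM at day 2 and 52.4 and 34.9 CPM at day 4 on the soft matrix, against 102 and 101 CPM and 28.5 and 93.4 CPM on the stiff one. Its libraries of day 4 were all below those of day 2, but the log2 fold change of -1.46 (standard error 0.47, edgeR adjusted p = 0.0515) on the soft and -0.74 (standard error 0.46, edgeR adjusted p = 0.261) on the stiff matrix was not called. On the soft matrix it was called by DESeq2 (adjusted p = 0.00432) and by edgeR with length and GC offsets (adjusted p = 0.0162). The edgeR fit without replicate 2 of the stiff matrix at day 4 called it lower on both matrices, with -1.48 on the soft and -1.84 on the stiff one, and without replicate 1 it was -0.12 on the stiff matrix and not called. Opposite GDF9 lie 11.5% of its exon bases.

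In complex IV, 1 of 11 genes rose on the soft and 3 on the stiff matrix, and none fell. The shares of all genes that rose and fell were 14.1% and 13.3% on the soft and 14% and 13.7% on the stiff matrix. COX6C, a structural subunit, was at 67.7 and 71.9 CPM at day 2 and 150.3 and 123 CPM at day 4 on the soft matrix, against 64.1 and 61.9 CPM and 108 and 229.6 CPM on the stiff one. All libraries of day 4 were above those of day 2, and the second stiff library was far above the other 3. Its log2 fold change was 1.42 (standard error 0.31, edgeR adjusted p = 0.015) on the stiff matrix, where it was 0.76 without replicate 2 of day 4, and 0.97 (standard error 0.31, edgeR adjusted p = 0.0509) on the soft matrix. It was 0.75 on the stiff and 0.52 on the soft matrix with length and GC offsets, both called. Exons of COX6C lie for 11.8% of their bases opposite another gene. COX7B, given above, rose on the stiff matrix with a log2 fold change of 0.92 (standard error 0.28, edgeR adjusted p = 0.0428), which was 0.38 without replicate 2 of day 4. It was 0.28 and not called with length and GC offsets (edgeR adjusted p = 0.143).

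COX7A2L is related to COX7A2 and known for linking complexes III and IV into supercomplexes. It lies on chromosome 2 of GRCh37 from 42560686 to 42652228, reverse strand. It was at 71 and 74.9 CPM at day 2 and 131 and 109 CPM at day 4 on the soft matrix, against 79 and 70.4 CPM and 116 and 166 CPM on the stiff one. The days did not overlap. Its log2 fold change was 0.72 (standard error 0.19, edgeR adjusted p = 0.0294) on the soft and 0.92 (standard error 0.19, edgeR adjusted p = 0.0134) on the stiff matrix, and with length and GC offsets it was 0.72 and 0.70, called on both. COX8A, the gene with the highest mean FPKM of all members, was at 308 and 251 CPM at day 2 and 341 and 278 CPM at day 4 on the soft matrix, against 245 and 246 CPM and 283 and 478 CPM on the stiff one. Its days overlapped, and its log2 fold changes of 0.15 and 0.63 were not called.

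In complex V, 0 of 16 genes rose and 1 fell on the soft matrix, and 2 rose and 1 fell on the stiff matrix. Among all genes the shares were 14.1% and 13.3% on the soft and 14% and 13.7% on the stiff matrix. ATP5C1, the gamma subunit of the rotating central stalk, rose on the stiff matrix with a log2 fold change of 0.82 (standard error 0.18, edgeR adjusted p = 0.0152), against 0.52 on the soft matrix, and its promoter is printed above. It was at 93.6 and 101 CPM at day 2 and 153 and 125 CPM at day 4 on the soft matrix, against 93.6 and 90.5 CPM and 137 and 187 CPM on the stiff one. All of its libraries of day 4 were above those of day 2. Its value on the stiff matrix was 0.33 with length and GC offsets and still called. ATP5O, the subunit that joins the peripheral stalk to the catalytic head, rose on the stiff matrix by 0.84, a value that was 0.39 without replicate 2 of day 4 and 0.50 with length and GC offsets, called in both fits.

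ATP5J2, now named ATP5MF, lies on chromosome 7 of GRCh37 from 99046098 to 99063809, reverse strand. It was at 112 and 93.3 CPM at day 2 and 25.4 and 17.8 CPM at day 4 on the soft matrix, against 92.9 and 88.3 CPM and 19.1 and 49.9 CPM on the stiff one. It fell from 103 ± 13.1 CPM to 21.6 ± 5.39 CPM on the soft matrix (SD, n = 2), a log2 fold change of -2.25 (standard error 0.40, edgeR adjusted p = 0.0076), and every library of day 4 was below all of day 2. Across the stiff libraries it fell from 90.6 ± 3.24 CPM to 34.5 ± 21.8 CPM (SD, n = 2), with -1.40 (standard error 0.39, edgeR adjusted p = 0.0344), and the value was -2.25 without replicate 2 of day 4 and -0.86 without replicate 1. Of its exon bases, 8.6% are shared on the same strand with PTCD1 and a read-through gene of both. The read-through gene ATP5J2-PTCD1 was listed at 0 counts in every library, and PTCD1 had between 9 and 15 counts at day 2 and 0 or 1 at day 4. How the counting shared out reads between these genes is not given in the sources used here.

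ATP5S, the member of this group with the lowest FPKM, was at 14.2 and 13.3 CPM at day 2 and 15.2 and 14.7 CPM at day 4 on the soft matrix, against 12.4 and 13 CPM and 15.5 and 16.2 CPM on the stiff one. Its largest log2 fold change, between the days on the stiff matrix, was 0.32 (standard error 0.14, edgeR adjusted p = 0.124). Its libraries of day 4 were all above those of day 2, and its implied length was 2187 bases.

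Several subunits exist as isoforms, some of which are known to respond to oxygen or to be restricted to muscle, testis or lung. For complex IV the widely expressed form was measured and the other was near 0. COX4I1 was at 126 and 108 CPM at day 2 and 168 and 131 CPM at day 4 on the soft matrix, against 110.5 and 106 CPM and 118 and 266 CPM on the stiff one. COX4I2, the form linked to hypoxia, had 0 counts in every library, which does not show that it was absent. COX6A1 was at 339.6 and 299.9 CPM at day 2 and 365 and 299.9 CPM at day 4 on the soft matrix, against 289 and 288 CPM and 284 and 478 CPM on the stiff one, compared with at most 3 counts of COX6A2. Both alternative forms were below the count minimum. COX6B1 was at 151 and 132 CPM at day 2 and 149 and 116 CPM at day 4 on the soft matrix, against 128 and 126 CPM and 109 and 233 CPM on the stiff one, compared with 4 to 15 counts of COX6B2. COX7A2 was at 134 and 137 CPM at day 2 and 225 and 167 CPM at day 4 on the soft matrix, against 120.0 and 115 CPM and 148 and 320.0 CPM on the stiff one, compared with 1 to 6 counts of COX7A1, and COX8C had 1 count in 1 library. These alternative forms were below the minimum too. NDUFA4 was at 111 and 103 CPM at day 2 and 126 and 104 CPM at day 4 on the soft matrix, against 88.8 and 85.7 CPM and 101 and 167 CPM on the stiff one, compared with 1 to 19 counts of NDUFA4L2, its paralog induced in hypoxia. None of the measured forms was called between the matrices in the fit of all libraries.

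COX5A and COX5B are distinct subunits with like names. COX5A was at 131 and 119.7 CPM at day 2 and 114 and 88.9 CPM at day 4 on the soft matrix, against 117 and 112 CPM and 83.4 and 182 CPM on the stiff one. COX5B was at 244 and 199.6 CPM at day 2 and 149 and 123 CPM at day 4 on the soft matrix, against 179.6 and 177 CPM and 98.9 and 238 CPM on the stiff one. The log2 fold changes between the days were -0.31 and 0.21 for COX5A and -0.71 and -0.08 for COX5B, on the soft and stiff matrix. Neither was called, but without replicate 2 of the stiff matrix at day 4 both were called lower on both matrices. Without replicate 1 both were called higher on the stiff matrix and lower on the soft one.

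ATP5G1, ATP5G2 and ATP5G3 encode the same mature subunit c of the ATP synthase ring. ATP5G1 was at 82.2 and 79.9 CPM at day 2 and 106 and 82.3 CPM at day 4 on the soft matrix, against 76.1 and 72.4 CPM and 81.4 and 166 CPM on the stiff one. ATP5G2 was at 189 and 181 CPM at day 2 and 158 and 129 CPM at day 4 on the soft matrix, against 187 and 178 CPM and 125 and 255 CPM on the stiff one. ATP5G3 was at 131 and 128 CPM at day 2 and 145 and 116 CPM at day 4 on the soft matrix, against 131 and 125 CPM and 114 and 201 CPM on the stiff one. At day 2 the ATP5G2 level was the highest of the 3 in CPM, and per length the mean FPKM was 143 for ATP5G1, 135 for ATP5G2 and 38.9 for ATP5G3. Between the days their log2 fold changes were 0.21, -0.37 and 0.01 on the soft matrix. The stiff matrix gave 0.73, 0.06 and 0.30, with none called on either. ATP5G2 was called lower on both matrices without replicate 2 of the stiff matrix at day 4 (-0.39 on the soft and -0.56 on the stiff one). Without replicate 1 it was called lower on the soft (-0.38) and higher on the stiff matrix (0.48), and ATP5G1 and ATP5G3 were called higher on the stiff matrix.

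Whether the effect of stiffness differed between the days was tested as an interaction. None of the 79 members was called in either direction, nor any of all genes (0%), and 0 members had an unadjusted p-value under 0.05. DESeq2 called 0 members. The change of the log2 fold change was above 0 in 78 of 79 members, with a median of 0.37 (0.01 over all genes). Without replicate 2 of the stiff matrix at day 4 it was above 0 in 14, with a median of -0.13. Without replicate 1 the median was 0.80. The largest change was that of ATP5J2, at 0.85 (standard error 0.55, edgeR adjusted p = 0.9997), and the lowest that of NDUFS1, at -0.15 (standard error 0.24, edgeR adjusted p = 0.9997).

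Other genes of mitochondrial respiration were compared as lists. Between the matrices 0 genes of these lists were called at day 2 or at day 4 by edgeR. At an unadjusted p-value under 0.05 there were 2 hypoxia-linked genes at day 4 and otherwise 0, and DESeq2 called 1 gene, UCP2, higher on the stiff matrix at day 4. At day 4 the median log2 fold change was 0.20 over 44 assembly factors, 0.11 over 17 enzymes of the TCA cycle and pyruvate dehydrogenase, 0.27 over 79 mitochondrial ribosomal protein genes and 0.39 over 82 cytosolic ribosomal protein genes. Over 14 regulators of mitochondrial biogenesis it was -0.02. Without replicate 2 of the stiff matrix the median was -0.08 over the assembly factors, 0.05 over the enzymes of the TCA cycle and 0.03 over the regulators. It was -0.26 over the 8 hypoxia-linked genes, -0.13 over the mitochondrial and -0.22 over the cytosolic ribosomal protein genes. Without replicate 1 these medians were 0.49, 0.13, 0.01, 0.13, 0.63 and 0.84 in the same order.

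Between the days, CYCS, the electron carrier cytochrome c, rose on both matrices, with log2 fold changes of 1.18 (standard error 0.17, edgeR adjusted p = 0.0036) and 1.36 (standard error 0.17, edgeR adjusted p = 0.00247). CYC1 (cytochrome c1), listed with it, went the other way, with -0.48 on the soft and -0.22 on the stiff matrix, and was not called. Among all genes, 14.1% rose and 13.3% fell on the soft matrix, and 14% rose and 13.7% fell on the stiff one. Of the 44 assembly factors, 7 rose and 2 fell on each matrix. ATPAF1, which helps to assemble the catalytic head of complex V, rose by 1.42 on the soft and 1.78 on the stiff matrix. COX16, a factor of complex IV assembly, fell on both matrices, with 3.06 to 4.79 CPM over the libraries of day 2 and 0.18 to 0.7 CPM over those of day 4. PET117, another such factor, had 1.51 to 1.8 CPM at day 2 and 0.0467 to 0.461 CPM at day 4, and fell on both matrices too. Of the 14 biogenesis regulators, 2 rose and 4 fell on each matrix. TFAM, the factor that packages mitochondrial DNA, rose by 0.75 and 0.49, and POLRMT, the mitochondrial RNA polymerase, had log2 fold changes of -1.16 and -1.18. ESRRA and POLG fell with it, and so did PPRC1, a coactivator of respiratory genes.

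Of the 17 enzymes of the TCA cycle and pyruvate dehydrogenase, 6 rose and 1 fell on the soft matrix and 6 rose and 0 fell on the stiff matrix. The shares of all genes were 14.1% higher and 13.3% lower on the soft, and 14% and 13.7% on the stiff matrix. PDHB rose by 0.53 and 0.89. Of the 8 hypoxia-linked mitochondrial genes, 4 rose between the days on the soft and 3 on the stiff matrix. UCP2, a carrier of the inner membrane, rose by 0.86 and 1.49, and HIGD1A by 0.91 and 0.88. Of 79 mitochondrial ribosomal protein genes, 10 rose and 2 fell on the soft and 21 rose and 0 fell on the stiff matrix. Of 82 cytosolic ones, 1 rose and 3 fell on the soft and 10 rose and 2 fell on the stiff matrix. The median log2 fold change on the stiff matrix was 0.40 over the assembly factors, -0.07 over the regulators and 0.38 over the enzymes. It was 0.18 over the hypoxia-linked genes and 0.37 over the mitochondrial and over the cytosolic ribosomal protein genes. Without replicate 2 of the stiff matrix at day 4, these medians were 0.06, -0.05, 0.21, 0.10, -0.09 and -0.16 in the same order.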

How the data were processed

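RNA-seq of 8 LX-2 libraries was analysed from the deposited counts per gene and the deposited FPKM values. Per the labels and the study's methods, the authors trimmed reads with TrimGalore, aligned them to hg19 with STAR 2.7.1a and counted them with HTSeq. The annotation and strand setting are not given in the sources used here. Compared between libraries, the ratio of count to FPKM was the same for 12080 genes (relative spread at most 1.78e-14), so both hold the same reads, and the FPKM imply 1 length per gene. Counts were tested with edgeR 4.0.16 (filterByExpr, TMM, quasi-likelihood F-test) in R 4.3.3, in 1 fit of 4 conditions with Benjamini-Hochberg adjustment over 14570 genes. CPM use TMM library sizes. Depth was 19955975 to 27263935 counts per library. Alternatives used DESeq2 1.42.0, limma 3.58.1 on log2(FPKM + 0.1 or 1), other scalings and filters, separate fits, a replicate block, left-out libraries, and offsets for length and GC content (splines with 5 degrees of freedom). Scripts were tested on simulated data.

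Groups came from the sample labels. Coordinates and exon overlaps are from GENCODE v44 on GRCh37, where all 79 members matched, and promoters from RefSeq on GRCh38.p14. Genes named with the value of each library were the highest and lowest of each complex by FPKM, the 5 largest called changes in each direction of each contrast together with its largest changes, and subunits with isoforms. The members and lists were chosen with earlier results of these data known.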

Additional observations from a re-analysis of the deposited data

How the results depend on the processing

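Between the matrices, no subunit was called at either day by edgeR with other scalings, other filters or offsets, or by DESeq2, except that the separate fit of day 2 called 5 lower. The number called between the days moved more. On the soft matrix, where 9 rose and 2 fell, the higher calls were 29 in a separate fit (24.7% of all genes), 31 with length offsets (23.7%), 35 with length and GC offsets and the second stiff library of day 4 left out (25.8%), and 5 with limma without a filter (7.85%). The lower calls were 14, 8 and 16 with those first 3 settings (25.9%, 18.5% and 23.1%), 6 with length and GC offsets (13.1%), 6 with DESeq2 (14.9%) and 5 without scaling factors (14.6%). On the stiff matrix, where 16 rose and 2 fell, the higher calls were 0 in a separate fit (0%), 39 with length offsets (25.1%), 10 with limma at a pseudocount of 0.1 (13.9%) and 7 with limma without a filter (7.85%). The lower calls were 0 in a separate fit (0%), 4 with length (17.3%) and 4 with length and GC offsets (13.2%), 1 with limma without a filter (9.29%), and 17 with length and GC offsets and that library left out (16.2%). With that last setting, chosen after seeing the data, the median log2 fold change was -0.069 between the matrices at day 4, 0.078 between the days on the stiff matrix and -0.044 for the change of the stiffness effect. Without scaling factors the median of all genes at day 4 moved from 0.02 to -0.09, and that of the subunits was 0.14, with 68 above 0.

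Leaving out 1 library at a time, where a library left alone is assumed to vary like the other groups, gave medians from -0.12 to -0.03 at day 2 and from -0.22 to 0.68 at day 4, with 0 to 68 subunits called higher at day 4. Between the days on the soft matrix the median ran from -0.03 to 0.23, with 0 to 30 called higher and 0 to 18 lower, and on the stiff matrix from -0.015 to 0.86, with 0 to 63 higher and 0 to 19 lower. The change of the stiffness effect ran from -0.13 to 0.80, with 0 to 59 called higher. The highest numbers called higher, at day 4 and for the change of the stiffness effect, came without the first stiff library of day 4. That fit leaves 1 library in its condition, and more of all genes were called higher in it than with all libraries. The fold change of ATP5J2 at day 4 ran from -0.17 without the second stiff library of day 4 to 1.22 without the first. That of SDHD turned to 0.059 with length and GC offsets and the second stiff library of day 4 left out. The change of NDUFS1 ran from -0.35 without the first stiff library of day 4 to 0.06 without the second. It passed 0.0075 without the second soft library of day 4. With the offsets and the second stiff library of day 4 left out it was 0.014. Of 862 values of single genes under an alternative, 627 kept their direction and side of the threshold, 205 lost the threshold, 25 passed it and 5 turned direction.

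Replicate numbers were shared by all conditions, but the labels do not say that a number marks a shared culture or day. The numbers were therefore not taken as pairs. Deviations of libraries with the same number correlated at -0.04 between the matrices at day 2 and -0.49 at day 4. For the days they correlated at 0.08 on the soft and 0.02 on the stiff matrix. With 2 libraries per condition these values cannot show whether the cultures were paired. With the replicate number as a block, 3 subunits were called higher between the days on the soft matrix (8.93% of all genes), and 9 higher (8.38%) and 1 lower (9.07%) on the stiff one. With the pairing at day 4 crossed, 62 of all genes and 0 subunits were called between the matrices.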
